A study of Rattus norvegicus with 12 samples.

Results

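Cyclic nucleotide phosphodiesterases (PDEs) are the enzymes that hydrolyse cAMP and cGMP and so end the signals of these second messengers. The 10 genes described here, Pde1a, Pde1c, Pde2a, Pde3a, Pde3b, Pde4a, Pde4b, Pde4d, Pde5a and Pde9a, were chosen by name as PDE genes of the heart, out of 30560 genes listed in the count table. The choice was made with earlier results of these data known. All 10 were listed, and all 10 had enough reads to be among the 18182 genes tested, so no member was lost to the filter on low counts. A further 14 rows of the table carry the symbol of another PDE gene, and they are given after the members. Pde11a was not analysed here.

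In cardiomyocytes, cAMP made by adenylyl cyclases after β-adrenergic stimulation activates protein kinase A, and PDEs of the PDE3 and PDE4 subfamilies confine this signal to small compartments around the calcium-handling proteins. cGMP is made by guanylyl cyclases in response to natriuretic peptides or nitric oxide, activates protein kinase G, and is hydrolysed mainly by PDE1, PDE2, PDE5 and PDE9. The subfamilies also connect both messengers, because cGMP stimulates PDE2 and inhibits PDE3. Inhibitors of PDE3 raise the force of contraction, and inhibitors of PDE5 relax vascular smooth muscle.

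The data were 12 bulk RNA-seq libraries from the hearts of male Wistar rats, operated on at 7 weeks of age, with 4 rats in each of 3 groups. Sham rats had the chest opened without a coronary suture and received vehicle, MI rats had the left anterior descending coronary artery ligated (myocardial infarction) and received vehicle, and MI + UA rats had the same ligation and received urolithin A (UA), a gut microbial metabolite of ellagitannins. Vehicle (carboxymethylcellulose) or UA was given by oral gavage each day for 8 weeks. The sources differ on the dose of UA and on the day it began, so neither is stated. Rats whose infarct was small on echocardiography had been left out by the study, the atria had been removed, and RNA came from 20 µm sections of the middle of the left ventricle fixed in formalin and embedded in paraffin, so each library holds whatever mixture of scar and surviving muscle the sections held. The question asked of the PDE genes was whether their transcripts differed after infarction, and whether UA moved them.

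Between 6228706 and 19031695 reads were assigned to genes per library, with a median of 8649109.5, and the 2 deepest libraries were both of the MI + UA group (rats 29 and 66). Mitochondrially encoded genes took 50.2% to 58.6% of these reads. Of the cardiomyocyte markers, 9 were listed and their summed level was 52141 to 58784 CPM (read counts scaled to the size of the library) in Sham, 36127 to 42472 in MI and 38241 to 49998 in MI + UA, so the libraries carried the transcripts of the labelled tissue. Rat 66 is labelled as treated with UA, while a supplementary list of the study places it with the vehicle rats. It was kept in MI + UA, and the members whose call or sign changes when it is counted in MI are named. All levels below are CPM after TMM normalisation, a scaling of library sizes. A gene was called changed when its adjusted p (Benjamini-Hochberg over all 18182 genes, edgeR quasi-likelihood test) was under 0.05. CPM does not correct for transcript length, so levels are compared between groups for 1 gene and never between genes.

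Of the 10 members, 4 were called in MI versus Sham: Pde3b was higher, and Pde3a, Pde4a and Pde4d were lower. Of all genes tested, 11.4% were called in this comparison (5.82% higher and 5.53% lower in MI). Because the members were chosen with earlier results known, the share called among them was not tested against that of all genes. The median log2 fold change of the members was -0.13, and that of all genes was 0.03. In 3 members (Pde3a, Pde3b and Pde4a) the 4 Sham rats and the 4 MI rats did not overlap, and 20.8% of the 11986 genes whose average log2 CPM reached 1, as that of all members did, were separated in this way. In MI + UA versus MI none of the 10 members was called and 0% of all genes were, and none of the members reached an unadjusted p under 0.05, against 3.79% of all genes.

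**Figure D1:**
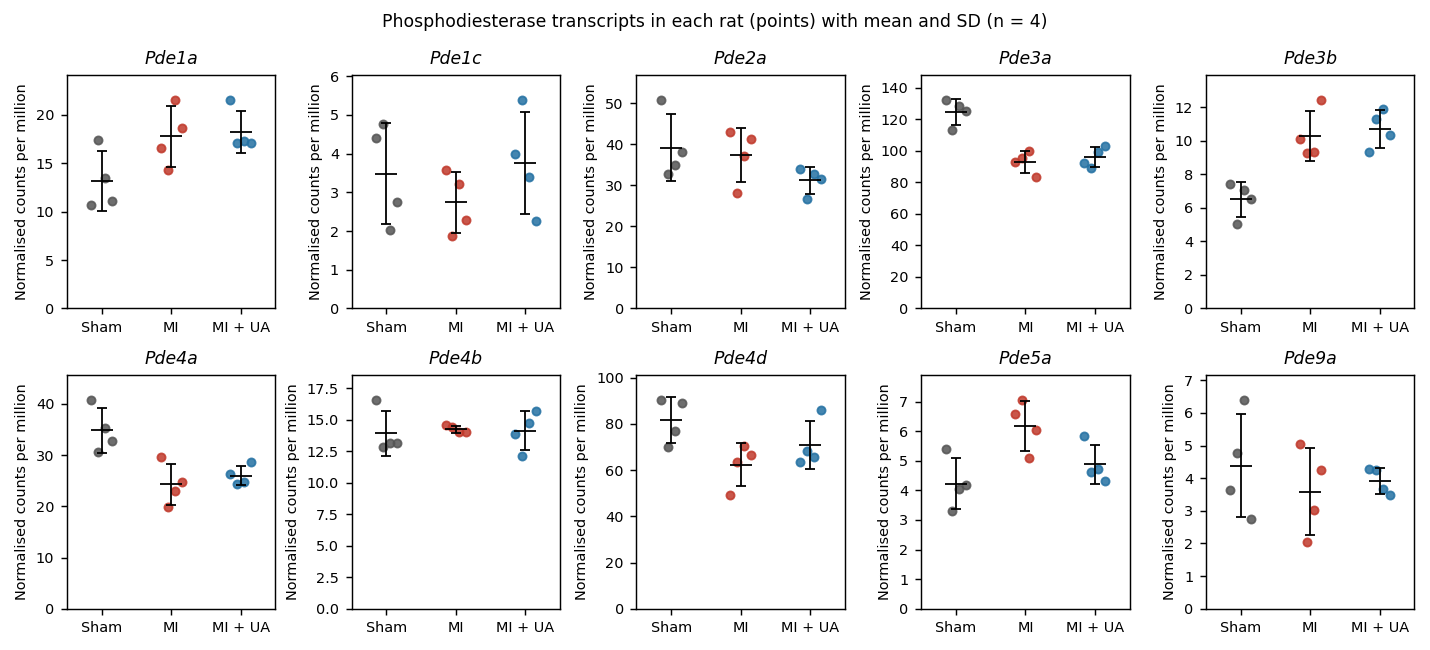
Normalised CPM (y axis, from 0) of the 10 PDE members in each rat of the Sham, MI and MI + UA groups. Points are rats, the horizontal bar is the mean of 4 rats and the whiskers are the SD. Pde3a lies at 113 to 133 in Sham and at 83.8 to 100.2 in MI, and Pde3b at 5.05 to 7.40 in Sham and 9.25 to 12.5 in MI, while the points of MI + UA overlap those of MI in every panel.

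The sequences that could be shown for these genes are stretches upstream of annotated start sites in RefSeq (rat build GRCr8, which is not the build the reads were aligned to). Windows of 250 bases before and 50 after a start were held for 8 of the 10 members, 17 windows in all, with none for Pde3b and Pde9a. They were searched on both strands for 13 motifs. The cAMP response element TGACGTCA, the site of CREB, was in 1.83% of all 33469 windows and in none of the members' windows. Its half-site TGACG, which lies within the full element, was in 21.2% of all windows and in 4 of 17 member windows (23.5%), which belonged to Pde4a and Pde4d, the members of the PDE4 subfamily that were lower in MI. These 4 stretches are shown because both genes were called lower in MI versus Sham, with the half-site in capitals (CGTCA where it is on the other strand), all read 5′ to 3′ along the gene's strand and ending at or before the start site.
Pde4a, chr8:27966946-27966986, + strand: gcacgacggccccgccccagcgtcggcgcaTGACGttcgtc
Pde4a, chr8:27999365-27999412, + strand: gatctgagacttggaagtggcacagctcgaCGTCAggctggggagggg
Pde4d, chr2:42592525-42592589, + strand: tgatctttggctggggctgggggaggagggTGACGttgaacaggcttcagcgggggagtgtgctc
Pde4d, chr2:42767568-42767616, + strand: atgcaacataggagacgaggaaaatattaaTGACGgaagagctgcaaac

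The share of member windows with the half-site was close to that of all windows, so it does not set the members apart. Of the other motifs, the GC box GGGCGG was in 10 of the 17 member windows (58.8%) and in 33.1% of all windows, where several member windows belong to 1 gene. The CCAAT box (CCAAT) was in 3 member windows and 37.5% of all. The GATA site AGATAA and the TEAD site CATTCC were in 2 member windows each, against 11.6% and 14.2% of all. The nuclear receptor half-site AGGTCA was in 1 member window and 16.2% of all. The E-box CACGTG (6.42% of all), the TATA box TATAAA (14.2%) and the AP-1 site TGACTCA (4.63%) were in no member window. Nor were 3 longer motifs, each searched in 1 form, the MEF2 site (0.137% of all), the CArG box (0.0329%) and the palindrome of TTCC and GGAA with any 2 bases between them (0.914%). The counts do not say which of a gene's start sites was used in these hearts.

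The PDE3 subfamily hydrolyses cAMP and is inhibited by cGMP. Pde3a (ENSRNOG00000025042) encodes the form known from the sarcoplasmic reticulum of cardiomyocytes, where it acts on the calcium pump. Its level was 133, 113, 128 and 125 CPM in Sham rats 12, 17, 32 and 38. In MI rats 36, 57, 61 and 89 it was 93.1, 95.8, 100.2 and 83.8 CPM. The MI + UA rats 29, 58, 64 and 66 had 92.4, 89.4, 99.1 and 103 CPM. Every infarcted rat, treated or not, was below the lowest Sham rat. The means were 125 ± 8.30 in Sham, 93.2 ± 6.94 in MI and 96.0 ± 6.22 in MI + UA (SD, n = 4), and the fitted fold of MI over Sham was 0.745. Its log2 fold change was -0.42 in MI versus Sham (SE 0.08, adjusted p = 0.00185, edgeR). For MI + UA versus Sham, which rests on the same Sham rats, it was -0.38 (SE 0.08, adjusted p = 0.00508, edgeR).

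Pde3b (ENSRNOG00000011417) encodes the other member of the subfamily, best known from adipocytes, liver and the vessel wall. The Sham rats had 7.40, 5.05, 7.07 and 6.56 CPM. Those of the MI group had 10.1, 9.25, 9.34 and 12.5 CPM. In the MI + UA rats it was 9.31, 11.3, 11.9 and 10.4 CPM. All 8 infarcted rats were above all Sham rats, which is the opposite direction to Pde3a. The mean was 6.52 ± 1.04 in Sham, 10.3 ± 1.5 in MI and 10.7 ± 1.14 in MI + UA (SD, n = 4), with a fitted fold of MI over Sham of 1.59. On the log2 scale, the fold change was 0.67 in MI versus Sham (SE 0.16, adjusted p = 0.00785, edgeR) and 0.70 in MI + UA versus Sham (SE 0.16, adjusted p = 0.00639, edgeR).

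Because both genes were counted in the same library, their ratio within a rat does not depend on how libraries are scaled. The log2 ratio of Pde3a to Pde3b counts was 4.15, 4.47, 4.17 and 4.25 in the Sham rats. It was 3.20, 3.36, 3.42 and 2.74 in the MI rats and 3.31, 2.98, 3.05 and 3.31 in the MI + UA rats. The ratio carries the lengths of both transcripts, so only its change between groups is read. The mean log2 ratio in MI minus that in Sham was -1.08, with no overlap between the groups, and MI + UA differed from MI by -0.02 with overlapping rats. This ratio is built from values that were tested above, and it was given no test of its own.

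**Figure D2:**
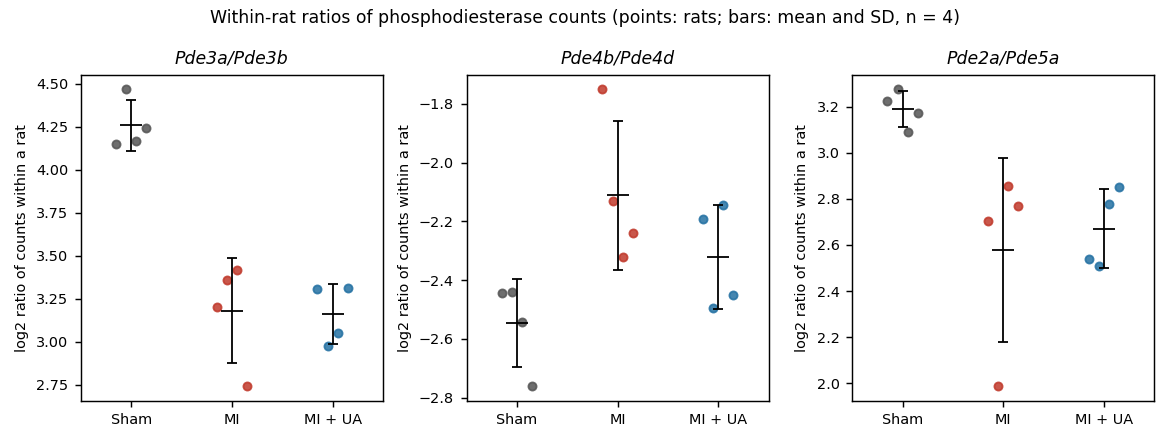
Log2 ratio of the counts of 2 PDE genes within each rat (y axis, not starting at 0) for Pde3a/Pde3b, Pde4b/Pde4d and Pde2a/Pde5a in the Sham, MI and MI + UA groups. Points are rats and bars are the mean and SD of 4 rats. The Pde3a/Pde3b ratio lies between 4.15 and 4.47 in Sham and between 2.74 and 3.42 in MI, with the MI + UA rats inside the range of the MI rats.

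Markers of other cell types moved with these genes. In MI versus Sham all 9 cardiomyocyte markers tested were called lower (median log2 fold change -0.45), against 5.53% of all genes. Their summed level did not overlap between Sham and either infarcted group. Of the fibroblast markers 6 of 8 were called higher (median 1.07), against 5.82% of all genes, and all 8 were above 0 by estimate. Their sums were 1127 to 1439 CPM in Sham, 2188 to 3574 in MI and 2205 to 3685 in MI + UA. Of the leukocyte and macrophage markers 6 of 8 were called higher (median 0.89), and all 8 were above 0 by estimate. Their sums were 113 to 125 CPM in Sham, 188 to 228 in MI and 175 to 260 in MI + UA. The share of all reads or read pairs that fell on genes also differed between Sham and MI without overlap, at 46.9% to 48.3% in Sham, 43.3% to 44.8% in MI and 42.9% to 47.2% in MI + UA. MI + UA rats 29 (46.89%, against a Sham minimum of 46.85%) and 64 (47.2%) lay within the Sham range of this share. Rats 58 (42.9%) and 66 (46.7%) lay below it. In all 4 of these rats the levels of Pde3a, Pde3b and Pde4a, given for each rat with the gene, lay outside the Sham range. In bulk tissue, fewer cells of a type and less RNA per cell cannot be told apart, and the part of these cell types and of the share on genes in the PDE results was not tested.

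Smooth muscle and pericyte markers were called higher in 4 of 8 (sums of 571 to 593 CPM in Sham, 565 to 715 in MI and 567 to 689 in MI + UA). Endothelial markers were called lower in 1 of 7 (731 to 831, 659 to 783 and 602 to 734 CPM). Of the adipocyte markers, which bear on Pde3b, adiponectin (Adipoq) had no read in 9 of the 12 rats, including all Sham rats, and Cidec none in 10, Lep none in 7 and Plin1 none in 4. Their summed level was 277 to 354 CPM in Sham, 228 to 262 in MI and 205 to 270 in MI + UA, nearly all of it from Plin4 and Fabp4, which are also expressed in muscle and endothelium. Of the 4 adipocyte markers tested, 1 was called lower in MI versus Sham, against 5.53% of all genes, and none was called higher. In MI + UA versus Sham 2 were called lower, against 4.27% of all genes, and none higher. The means in Sham and MI were 184 and 134 CPM for Plin4 and 137 and 113 CPM for Fabp4. Adipoq and Plin1, the more specific markers, were higher by estimate in MI but not called (adjusted p = 0.0965 and 0.339, edgeR). Adipoq had 0 to 29 reads in the MI rats and 0 to 5 in the MI + UA rats, and Plin1 had 0 to 2 reads in Sham, 0 to 16 in MI and 0 to 9 in MI + UA. The part of adipocytes in the Pde3b result was not tested. Of the Schwann cell and nerve markers 1 of 4 was called higher in MI (14.5 to 17.3, 16.9 to 26.9 and 20.1 to 62.3 CPM in the 3 groups). Of 3 atrial markers none was called (summed level at most 12.5 CPM).

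**Figure D3:**
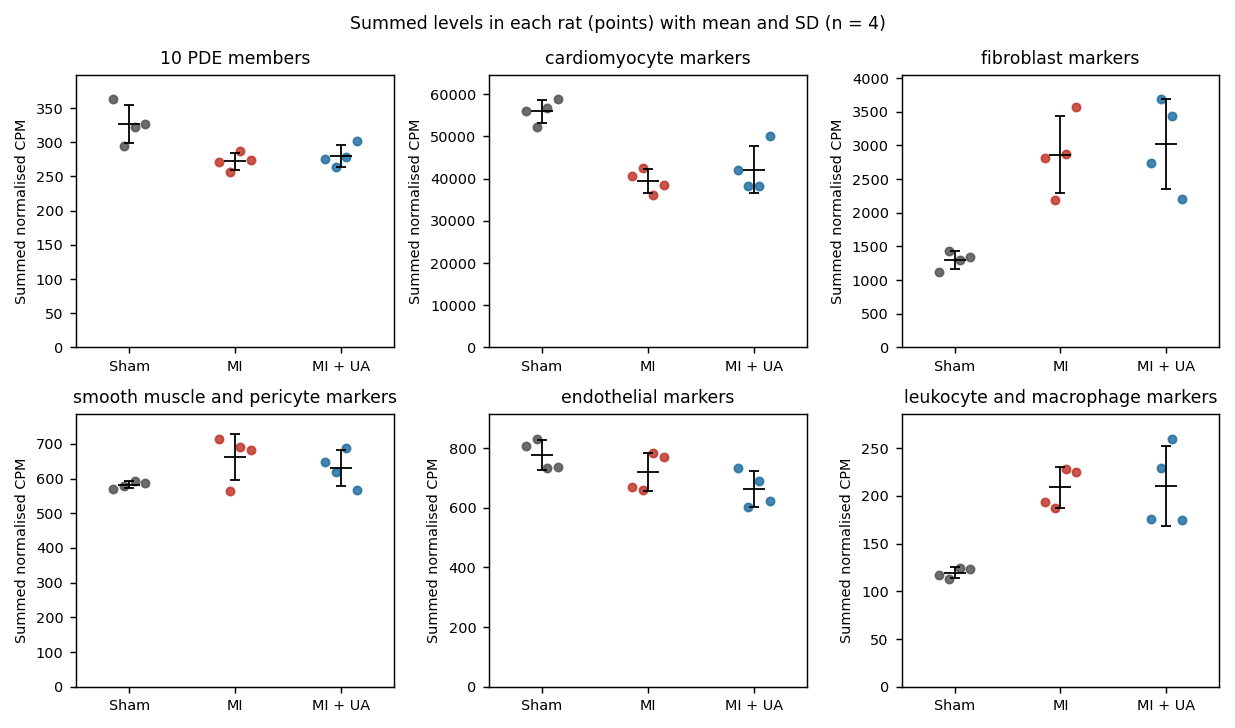
Summed normalised CPM (y axis, from 0) of the 10 PDE members and of 5 lists of cell type markers in each rat, with the mean and SD of 4 rats per group. The PDE sum is 295 to 363 in Sham, 256 to 287 in MI and 263 to 302 in MI + UA, which overlaps Sham, the cardiomyocyte sum is lower in all infarcted rats than in the Sham rats, and the fibroblast and leukocyte sums are higher.

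The PDE4 subfamily is specific for cAMP, and its isoforms are held at the ryanodine receptor, the β-adrenergic receptors and other sites by scaffold proteins. Pde4a (ENSRNOG00000020828) had 40.8, 30.6, 35.4 and 32.8 CPM in the Sham rats. The MI rats had 29.5, 19.9, 23.0 and 24.7 CPM. The MI + UA rats had 26.3, 24.4, 24.8 and 28.6 CPM. As for Pde3a, the lowest Sham rat was above every infarcted rat, although MI rat 36 came close to it. The mean was 34.9 ± 4.38 in Sham, 24.3 ± 4.02 in MI and 26.0 ± 1.90 in MI + UA (SD, n = 4), with a fitted fold of MI over Sham of 0.703. The log2 fold change was -0.51 in MI versus Sham (SE 0.12, adjusted p = 0.00644, edgeR). For MI + UA versus Sham it was -0.42 (SE 0.12, adjusted p = 0.0264, edgeR), and this second call was lost in 5 of the 8 fits that left out 1 rat, in which the estimate stayed between -0.41 and -0.33, with an adjusted p of 0.102 without Sham rat 12, 0.0639 without Sham rat 32, 0.0642 without MI + UA rat 29, 0.0701 without rat 58 and 0.0694 without rat 64.

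Pde4d (ENSRNOG00000042536) encodes the form bound to the ryanodine receptor and the β-adrenergic receptors. The Sham rats had 90.3, 70.0, 76.9 and 89.2 CPM. In the MI rats the level was 49.1, 63.5, 70.3 and 66.4 CPM. The MI + UA rats had 63.6, 68.3, 65.5 and 86.0 CPM. Sham and MI touched at 1 rat each (Sham rat 17 and MI rat 61), and MI + UA spread up to rat 66, the rat with the doubtful label, which lay within the Sham range. The mean was 81.6 ± 9.83 in Sham, 62.3 ± 9.26 in MI and 70.8 ± 10.3 in MI + UA (SD, n = 4). Its log2 fold change in MI versus Sham was -0.39 (SE 0.12, adjusted p = 0.0364, edgeR). This call was lost in 5 of the 8 fits that left out 1 rat, while the estimate stayed between -0.46 and -0.29. The adjusted p was 0.109 without Sham rat 12, 0.0565 without Sham rat 32, 0.117 without Sham rat 38, 0.121 without MI rat 36 and 0.0519 without MI rat 57, and with rat 66 counted in MI the change was -0.28 (adjusted p = 0.149). Against Sham, the MI + UA rats had a log2 fold change of -0.20 (SE 0.12, 95% interval -0.45 to 0.04, adjusted p = 0.343, edgeR).

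Pde4b (ENSRNOG00000005905) encodes the form that is also known from leukocytes and from the L-type calcium channel complex. Sham rats had 16.6, 12.8, 13.1 and 13.1 CPM. Those of the MI group had 14.5, 14.4, 14.0 and 14.0 CPM, and the MI + UA rats had 13.9, 12.1, 14.8 and 15.7 CPM. The groups overlapped throughout, and Sham rat 12 stood above the other Sham rats. The mean was 13.9 ± 1.77 in Sham, 14.3 ± 0.279 in MI and 14.1 ± 1.54 in MI + UA (SD, n = 4). On the log2 scale, the fold change in MI versus Sham was 0.03 (95% interval -0.22 to 0.28, adjusted p = 0.919, edgeR), so a change of the size estimated for Pde4a lies outside this interval.

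Within each rat, the log2 ratio of Pde4b to Pde4d counts was -2.44, -2.44, -2.54 and -2.76 in Sham. It was -1.75, -2.13, -2.32 and -2.24 in MI, higher than in every Sham rat. In MI + UA the values were -2.19, -2.49, -2.15 and -2.45, which overlapped both other groups. The mean was 0.43 higher in MI than in Sham, and the ratio of Pde4a to Pde4d overlapped between all groups, with a difference of -0.13 between MI and Sham that was -0.34 without MI rat 36, -0.21 without Sham rat 38, -0.050 without MI rat 61 and -0.029 without MI rat 57.

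The PDE1 subfamily is activated by calcium and calmodulin and hydrolyses both messengers. Pde1a (ENSRNOG00000054212) encodes a form that prefers cGMP and is found in myocytes, smooth muscle and activated fibroblasts. Sham rats had 10.7, 17.5, 13.5 and 11.1 CPM. The MI rats had 16.6, 14.3, 21.6 and 18.7 CPM. The MI + UA rats had 21.5, 17.1, 17.3 and 17.1 CPM. Sham rat 17 lay within the range of the infarcted rats, and the other Sham rats were below all of them. The mean was 13.2 ± 3.12 in Sham, 17.8 ± 3.11 in MI and 18.3 ± 2.19 in MI + UA (SD, n = 4). The log2 fold change was 0.45 in MI versus Sham (95% interval 0.12 to 0.77, adjusted p = 0.0707) and 0.49 in MI + UA versus Sham (0.17 to 0.81, adjusted p = 0.0517, edgeR), so neither was called. Without Sham rat 17 both passed, with adjusted p of 0.0151 and 0.0122, and the first also passed without MI rat 57 (0.0357).

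Pde1c (ENSRNOG00000012337) encodes a form that acts on both messengers with like affinity. Sham rats had 4.39, 4.76, 2.02 and 2.74 CPM. Those of the MI group had 3.58, 1.88, 3.22 and 2.28 CPM, and the MI + UA rats had 4.00, 5.39, 3.38 and 2.25 CPM. The ranges of the 3 groups overlapped, and the highest MI rat lay below the highest rats of the other groups. Its log2 fold change in MI versus Sham was -0.32, with a wide 95% interval of -0.97 to 0.32 (adjusted p = 0.595, edgeR), which at 400 reads over all 12 libraries spanned changes in both directions. With 1 rat left out it ran from -0.49 (without Sham rat 32 or MI rat 36) to -0.15 (without Sham rat 17), and it was -0.19 without Sham rat 12 and -0.21 without MI rat 57.

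Pde2a (ENSRNOG00000019560) encodes the enzyme that cGMP stimulates. Its level was 50.9, 32.8, 35.0 and 38.2 CPM in Sham. The MI rats had 43.1, 28.2, 37.2 and 41.4 CPM. The MI + UA rats had 34.1, 26.6, 32.9 and 31.5 CPM. Sham rat 12 was the highest, and all 4 MI + UA rats lay below 3 of the 4 MI rats, though the groups overlapped. The mean was 39.2 ± 8.12 in Sham, 37.5 ± 6.64 in MI and 31.2 ± 3.28 in MI + UA (SD, n = 4). On the log2 scale, the fold change was -0.06 in MI versus Sham (adjusted p = 0.856) and -0.33 in MI + UA versus Sham (95% interval -0.61 to -0.04, adjusted p = 0.157, edgeR). Without Sham rat 12 the latter was -0.17 (adjusted p = 0.489, edgeR).

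Pde5a (ENSRNOG00000014443) encodes the cGMP-specific enzyme that sildenafil inhibits, known from smooth muscle. Sham rats had 5.39, 3.32, 4.04 and 4.17 CPM. Those of the MI group had 6.58, 7.06, 5.09 and 6.03 CPM, and the MI + UA rats had 5.83, 4.62, 4.74 and 4.33 CPM. Among the MI rats 3 were above all Sham rats, and all MI + UA rats except rat 29 were below all MI rats. The mean was 4.23 ± 0.861 in Sham, 6.19 ± 0.846 in MI and 4.88 ± 0.654 in MI + UA (SD, n = 4). The log2 fold change in MI versus Sham was 0.53 (95% interval 0.13 to 0.94, adjusted p = 0.0845, edgeR), which was not called, and without Sham rat 12 it was 0.68 (adjusted p = 0.0418). The summed smooth muscle and pericyte markers were above the Sham range in 3 MI rats and below it in MI rat 57, the rat with the highest Pde5a level, and their part in this value was not tested.

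Pde9a (ENSRNOG00000001174) encodes the enzyme with the highest affinity for cGMP, linked to natriuretic peptide signalling. Sham rats had 3.64, 4.76, 6.40 and 2.74 CPM. The MI rats had 5.04, 2.04, 3.01 and 4.24 CPM, and the MI + UA rats had 4.29, 4.24, 3.65 and 3.49 CPM. The MI + UA rats all lay within the range of both other groups. Its log2 fold change in MI versus Sham was -0.21 (95% interval -0.77 to 0.36, adjusted p = 0.714, edgeR).

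The ratio of Pde2a to Pde5a, both of which hydrolyse cGMP, separated Sham from the infarcted rats although neither gene was called. Its log2 value was 3.22, 3.28, 3.09 and 3.17 in the Sham rats. In MI it was 2.70, 1.99, 2.86 and 2.77, and in MI + UA 2.54, 2.51, 2.78 and 2.85. Every infarcted rat was below every Sham rat, by -0.61 on average in MI and by -0.52 in MI + UA, and MI + UA and MI overlapped. The ratios of Pde1a to Pde1c and of Pde5a to Pde9a overlapped between groups in all comparisons. None of the 6 ratios computed was tested, and the share of other gene pairs that separate in this way was not computed.

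**Figure D4:**
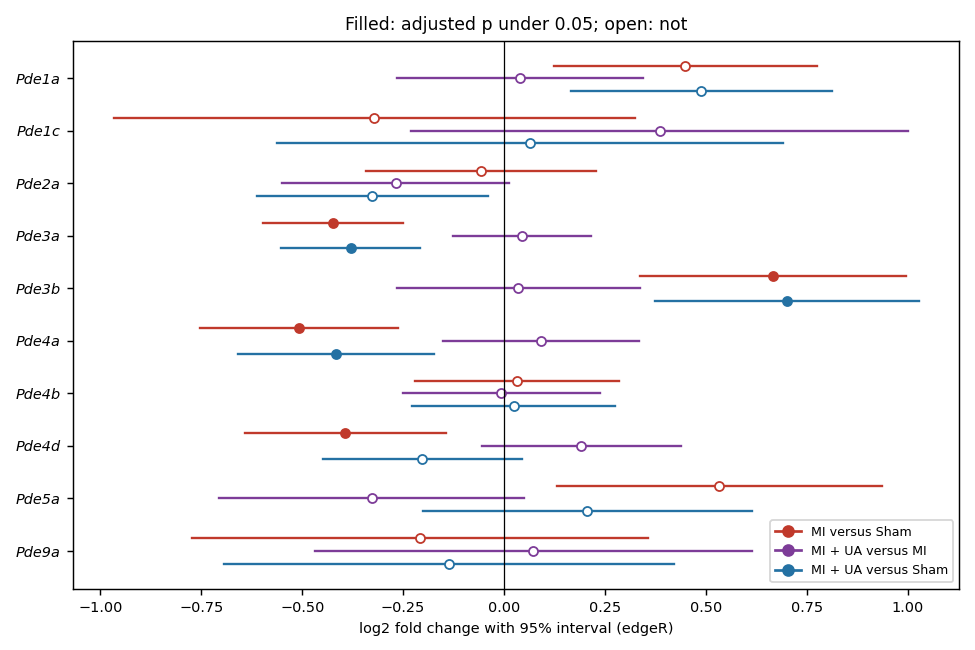
Log2 fold change (x axis) of each PDE member in MI versus Sham (red), MI + UA versus MI (purple) and MI + UA versus Sham (blue), with 95% intervals from edgeR. Filled points have an adjusted p under 0.05 and open points do not. Pde3a, Pde4a and Pde4d are filled below 0 and Pde3b above 0 for MI versus Sham, and all purple intervals include 0.

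UA treatment was compared in the infarcted rats alone. No member separated both groups of rats, against 2.03% of the genes at that average log2 CPM. Neither the main edgeR fit nor DESeq2 called any gene in this comparison, and the few calls of other edgeR fits are given below. The estimates for the 4 members called in MI versus Sham were 0.04 for Pde3a (95% interval -0.13 to 0.22), 0.04 for Pde3b (-0.27 to 0.34), 0.09 for Pde4a (-0.15 to 0.33) and 0.19 for Pde4d (-0.06 to 0.44). With rat 66 counted in MI, the estimates for Pde3a, Pde4a and Pde4d changed sign, to -0.02, -0.01 and -0.03. Single rats also moved these values, that of Pde4a to 0.20 without MI rat 36, 0.017 without MI rat 57 and 0.040 without MI + UA rat 66, and that of Pde4d to 0.088 without MI rat 36 and 0.080 without MI + UA rat 66. The interval of each of these 4 genes included 0, and that of Pde4d also included the reverse of its change of -0.39 in MI versus Sham.

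The lowest unadjusted p among the members belonged to Pde2a and Pde5a, both lower in MI + UA by estimate. Pde2a was at -0.27 (95% interval -0.55 to 0.01, unadjusted p = 0.0606) and Pde5a at -0.33 (-0.70 to 0.05, unadjusted p = 0.0857), and the adjusted p of both was 0.9997 in edgeR. The estimate of Pde5a rested in part on rat 66, which had the lowest level of the MI + UA group, and was -0.16 with that rat counted in MI. Pde1c was at 0.39 with an interval of -0.23 to 1.00, and this value moved to 0.19 without MI + UA rat 58, 0.59 without MI + UA rat 66 and 0.66 with rat 66 counted in MI. Pde1a (0.04), Pde4b (-0.01) and Pde9a (0.07) complete the members. The median over the 10 was 0.04, and over all genes 0.0047.

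In MI + UA versus Sham 3 of the 10 members were called, Pde3b higher and Pde3a and Pde4a lower, and the same 3 were separated between the groups of rats. Over all genes 9.44% were called (5.16% higher and 4.27% lower in MI + UA), and 18.7% of the genes at that average log2 CPM were separated. The Sham rats serve both comparisons with Sham, so the values of each stand side by side and are not independent. Pde1c (0.06), Pde4b (0.02), Pde5a (0.21) and Pde9a (-0.14) were not called against Sham. With 1 rat left out, the value of Pde5a was 0.35 without Sham rat 12, 0.11 without Sham rat 17 and 0.10 without MI + UA rat 29, and that of Pde4d was -0.31 without MI + UA rat 66. Pde4d was called in MI and not in MI + UA, but the test between both infarcted groups did not show a difference for it.

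The members were also described as shares of all reads on PDE genes in a library, which removes changes common to the family. Pde3a took 28.7% to 32.1% of them in Sham, 23.4% to 28.1% in MI and 25.1% to 28.5% in MI + UA. Pde3b took 1.38% to 1.77%, 2.57% to 3.48% and 2.59% to 3.43%. Both genes thus kept the separation of Sham from the infarcted rats. Pde4a did not keep it in MI, with 8.06% to 8.84% in Sham, 5.85% to 8.36% in MI and 6.84% to 7.42% in MI + UA. Pde4b took 3.23% to 3.59% in Sham and 3.85% to 4.24% in MI, and Pde5a took 0.904% to 1.17% in Sham and 1.40% to 2.07% in MI, so both were separated on this scale though their CPM was not. A share also rises where the reads of other PDE genes fall, and Pde3a and Pde4d were lower in MI, while the mean CPM of Pde4b was 13.9 in Sham and 14.3 in MI. In MI + UA the shares of both overlapped those of Sham, at 3.39% to 4.24% for Pde4b and 1.09% to 1.65% for Pde5a. The shares of the other 5 members overlapped between Sham and each infarcted group. Separation on this scale was not particular to the members. Pde7a took 1.65% to 2.46% in Sham and 3.03% to 4.05% in MI, and Pde8a 4.55% to 5.35% and 5.53% to 8.01%. Pde4c was separated in the other direction, at 0.968% to 1.36% in Sham and 0.645% to 0.956% in MI. The share of all genes that separate on such a scale was not computed. The 10 members together took 78.6% to 80.5% in Sham, 75.3% to 78.8% in MI and 73.9% to 80.0% in MI + UA.

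The other PDE genes of the table were described next. Of their 14 rows, 12 were tested, and Pde6h (5 reads over all libraries) and a second row named Pde4c (1 read) were not. Only Pde7a, which encodes a cAMP-specific enzyme known from lymphocytes and muscle, was called in MI versus Sham, against 11.4% of all genes. It had 11.3, 6.06, 7.91 and 10.0 CPM in Sham, 13.7, 13.8, 13.3 and 10.8 in MI, and 12.3, 10.8, 9.47 and 12.7 in MI + UA. One Sham rat (12) lay above the lowest MI rat, and the log2 fold change was 0.53 (SE 0.17, adjusted p = 0.0429, edgeR). The call was lost in 6 of the 8 fits that left out 1 rat (Sham rats 17, 32 and 38, and MI rats 36, 57 and 61), with adjusted p from 0.0549 to 0.146, and in the fit of both groups alone (adjusted p = 0.0543, edgeR).

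The other cAMP-specific genes were not called. Pde7b was at 28.6 to 36.8 CPM in Sham and 21.3 to 27.1 in MI, without overlap, with a log2 fold change of -0.35 (adjusted p = 0.204, edgeR). Pde4c was at 3.61 to 6.27 CPM in Sham and 2.20 to 3.42 in MI, also without overlap, at -0.63 (adjusted p = 0.0840, edgeR). Pde8a, at 18.2 to 24.7 CPM in Sham and 20.1 to 28.3 in MI, had 0.30 (adjusted p = 0.177, edgeR), and Pde8b had 0.10 at 206 reads in all.

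Pde1b was at -0.37 in MI versus Sham and -0.98 in MI + UA versus Sham (adjusted p = 0.107, edgeR), from 0.866 to 3.26 CPM in Sham and 0.900 to 1.62 in MI + UA. Pde10a, which acts on both messengers, was at 0.36 and 0.48, and Pde6d, a prenyl-binding protein despite its name, at -0.21 and 0.03. The photoreceptor genes Pde6a and Pde6g had 11 and 12 reads over the 12 libraries, and Pde6b and Pde6c had 136 and 126. None of these 4 photoreceptor genes was called in any comparison, and their intervals were wide, for Pde6b -1.49 to 0.29 in MI versus Sham.

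The genes that make and use the same messengers were counted from lists of pathway genes. The list for cAMP production had 15 tested rows, of which the G protein gene Gnas has 2. Of these 15 rows, 1 was called higher and 4 lower in MI than in Sham (median log2 fold change -0.13). Over all genes these shares were 5.82% and 5.53%. Adcy7, an adenylyl cyclase known from blood cells, was higher, from 5.65 to 8.70 CPM in Sham to 19.9 to 27.3 in MI (log2 fold change 1.69, SE 0.18, adjusted p = 3.57e-06, edgeR). The main cardiac cyclases were lower, with Adcy5 at -0.34 (adjusted p = 0.0159) and Adcy6 at -0.38 (adjusted p = 0.00656), as was Adcy1 at -0.64 (adjusted p = 0.000253, edgeR). Adrb1, the β1-adrenergic receptor, was at 10.8 to 17.2 CPM in Sham and 7.37 to 10.1 in MI (-0.55, adjusted p = 0.0251, edgeR). The call of Adcy5 was lost in 3 of 8 fits that left out 1 rat (Sham rat 38, MI rats 61 and 89) and that of Adrb1 in 4 (Sham rats 12 and 38, MI rats 57 and 61), with adjusted p up to 0.0672 and 0.113. Cardiomyocyte markers were lower and leukocyte markers higher in the same comparison, as given above. Their part in the results of this and the other pathway lists was not tested.

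Of the 18 tested genes on the cAMP effector list, 2 were called lower in MI and none was called higher. That share was close to the 11.4% of all genes called in this comparison. Prkaca, the catalytic subunit of protein kinase A, was at 140 to 168 CPM in Sham and 110 to 117 in MI (-0.40, SE 0.08, adjusted p = 0.00144, edgeR). Prkar1a, a regulatory subunit, was at -0.27 (adjusted p = 0.0233, edgeR), a call lost without Sham rats 17, 32 or 38 or MI rat 89 (adjusted p up to 0.0944). Of the 11 tested scaffold genes, 3 were called lower, while the median of the list was 0.07. Pde4dip, or myomegalin, which binds PDE4D, was at 670 to 778 CPM in Sham and 502 to 548 in MI (-0.46, SE 0.08, adjusted p = 0.000561, edgeR). Akap9, which anchors PDE4D at a potassium channel, was at -0.36 (adjusted p = 0.0120), and Akap6, which anchors it at the nuclear envelope, at -0.31 (adjusted p = 0.0346, edgeR). The call of Akap6 was lost in 6 of the 8 fits (Sham rats 12, 17 and 32, MI rats 36, 61 and 89, adjusted p up to 0.118).

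On the cGMP side, 1 of 11 tested production genes was called, a share no higher than the 11.4% of all genes. Nppa, which encodes atrial natriuretic peptide, was at 18.3 to 80.1 CPM in Sham and 181 to 479 in MI (log2 fold change 2.74, SE 0.31, adjusted p = 7.94e-06, edgeR). None of the 4 tested cGMP effector genes (Abcc5, Irag1, Prkg2 and Vasp, out of 6 names on the list) was called. Prkg2, the only protein kinase G gene among them, had no read in 7 of the 12 rats, so little can be read for that kinase. Between MI + UA and MI no gene of any of these lists was called. In MI + UA versus Sham, 4 cAMP production genes, 1 effector, 2 scaffolds and 2 cGMP production genes were called (9.44% of all genes were), the latter being Nppa (2.37) and, lower, Nos3, the endothelial nitric oxide synthase (-0.37, adjusted p = 0.0303, edgeR). Of the genes on the cAMP side, the call of Akap6 was lost in 7 of the 8 fits that left out 1 rat (all but MI + UA rat 66, adjusted p up to 0.130) and that of Adcy5 in 6 (Sham rats 17, 32 and 38, MI + UA rats 29, 58 and 64, adjusted p up to 0.0860). Adrb1 lost its call in 3 (Sham rats 12 and 38, MI + UA rat 29, adjusted p up to 0.0846). The call of Nos3 was lost in 5 of 8 fits that left out 1 rat (Sham rats 12, 17 and 38, MI + UA rats 58 and 64, adjusted p up to 0.106).

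**Figure D5:**
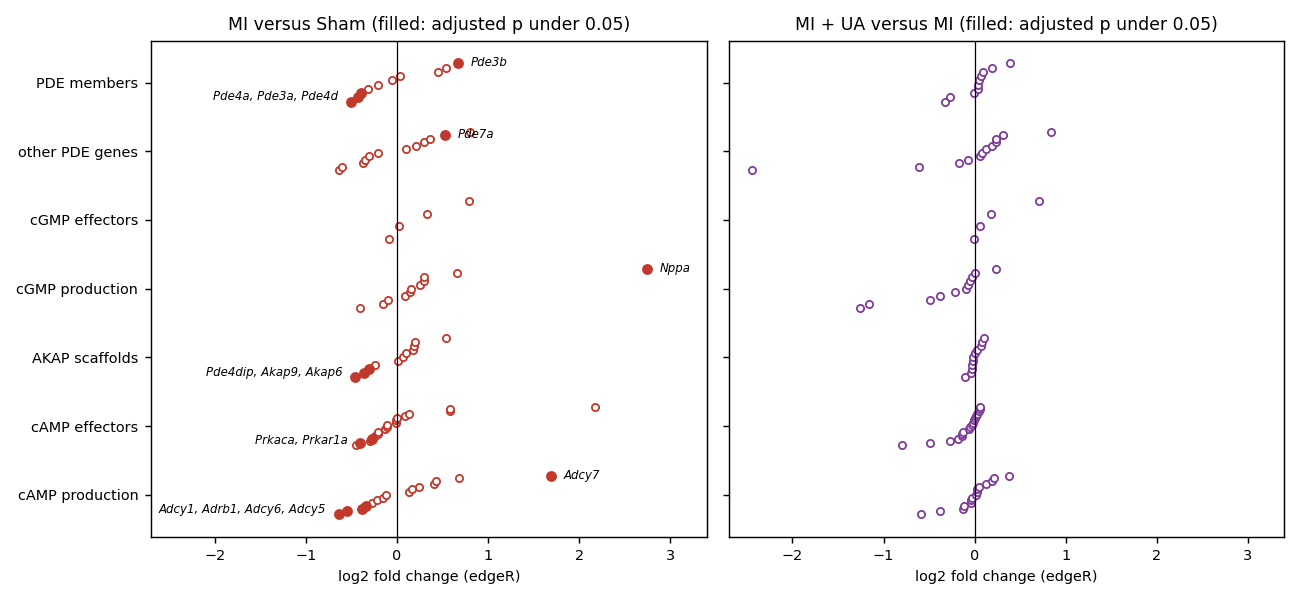
Log2 fold change (x axis) of every tested gene of the PDE members, the other PDE genes and 5 lists of cAMP and cGMP pathway genes, in MI versus Sham (left) and MI + UA versus MI (right). Filled points, named, have an adjusted p under 0.05 in edgeR. Named points are present on the left, such as Adcy7 at 1.69 and Nppa at 2.74, and absent on the right.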

How the data were processed

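Per the labels and the methods, the authors prepared strand-specific libraries after depletion of ribosomal RNA (the label of the molecule reads polyA RNA) and sequenced them in pairs. Their processing notes name STAR 2.6.1c, HTSeq, MultiQC 1.8 and the rat build mRatBN7.2. The deposited values are whole-number counts of reads per gene, not normalised. The strand setting of counting is not given in the sources used here, so reads from a gene and an overlapping antisense gene may not be told apart. 1 further MI + UA library that the study excluded was not analysed here. The 5 summary lines of the counting tool were left out of library sizes, and genes took 42.9% to 48.3% of all reads or read pairs in the columns.

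Genes with at least 10 reads over all libraries were fitted in edgeR 4.0.16 (R 4.3.3) with TMM scaling and 1 mean per group over the 3 groups, and tested by quasi-likelihood, with a threshold of 0.05 on the adjusted p and 95% intervals. With 4 animals per group, p-values measure the spread between animals. Alternatives were DESeq2 1.42.0, other filters, scalings and samples, rat 66 in MI, and each rat left out. The fit was tested on simulated data. Replicates differed by more than sampling noise (chi-square per gene of 1.95 or more in every pair of a group). Ratios within a rat used counts plus 0.5. No batch is given in the labels. The title of Sham rat 12 alone carries a further suffix after the rat number, and its meaning is not given.

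The members and the lists of pathway and marker genes were chosen with earlier results of these data known. The text names all members, the other tested PDE genes, and the called genes of each pathway list, up to 5 by the smallest p in MI versus Sham. Sequences are from RefSeq (GRCr8), whose coordinates were not used with the counts. Protein sequences and transcript lengths were not used here.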

Additional observations from a re-analysis of the deposited data

Results flagged for a closer look

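Among the 10 members in 3 groups of 4 rats, 30 groups were examined for a rat that stood apart by Dixon's criterion (the gap to the nearest rat over the range of the group above the 95% critical value for 4 rats), on the log2 scale. 2 groups met it, and chance meets it in about 1 in 20 groups, or 1.5 of 30. Pde1a in MI + UA rat 29 was at 21.5 CPM against 17.1 to 17.3 CPM in the other MI + UA rats, a ratio of 0.939. Pde4b in Sham rat 12 was at 16.6 CPM against 12.8 to 13.1 CPM in the other Sham rats, a ratio of 0.914. Neither gene was called in any comparison.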

How the results depend on the processing

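No paired analysis was possible because each rat contributed a single library and the groups share none of the rat numbers. The number of members called stayed within 1.5 times of the value reported in all alternatives run. It was 3 to 5 in MI versus Sham, 2 to 4 in MI + UA versus Sham and 0 in MI + UA versus MI. The calls of Pde3a and Pde3b against Sham in both infarcted groups, and that of Pde4a in MI versus Sham, held in all alternatives, and those of Pde4d and of Pde4a in MI + UA versus Sham did not, as given above. Pde1a passed in MI versus Sham with no filter beyond 1 count (adjusted p = 0.0408, edgeR), and in MI + UA versus Sham with DESeq2 (0.0432), filterByExpr (0.0480), no filter beyond 1 count (0.0233) and rat 66 in MI (0.0467). No gene in the whole table was called in MI + UA versus MI except 3 with no filter beyond 1 count and, with rats left out, 0 to 1 (1 without MI rat 36). Of 450 member fold changes recomputed, 403 kept direction and call, 11 lost the call, 9 gained it and 27 changed sign, the cause of which was not tested.

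The sign changes concerned uncalled values. With rat 66 in MI they were Pde3a -0.024, Pde4a -0.011 and Pde4d -0.031 in MI + UA versus MI, and Pde4b -0.037 in MI + UA versus Sham. With 1 rat left out, the ranges that crossed 0 were, in MI versus Sham, Pde2a -0.14 to 0.096, Pde4b -0.0057 to 0.13 and Pde9a -0.42 to 0.013. In MI + UA versus MI they were Pde1a -0.061 to 0.14, Pde3a -0.0050 to 0.081, Pde3b -0.015 to 0.15, Pde4b -0.069 to 0.053 and Pde9a -0.082 to 0.29. In MI + UA versus Sham they were Pde1c -0.14 to 0.27, Pde4b -0.038 to 0.12 and Pde9a -0.32 to 0.087. Over all alternatives, leave-one-out fits included, the calls in MI versus Sham numbered 3 to 7 for cAMP production, 1 to 3 for cAMP effectors, 2 to 3 for scaffolds, 1 to 2 for cGMP production, and 0 to 1 for cGMP effectors and for the other PDE genes. Against Sham, MI + UA had 2 to 6, 1 to 4 (4 with DESeq2, against 1 reported), 1 to 4, 1 to 3, 0 to 1 and 0 to 1. Ratios corrected for transcript length were not run for lack of lengths. The depth of 400 to 633 reads in all for Pde1c, Pde9a and Pde5a limits what could be detected for them.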
